A study of Homo sapiens with 40 samples.

Results

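The genes of DNA synthesis and mitosis form a set of 54 genes chosen by name, from the entry into S phase to the separation of the chromosomes. Of these, 48 were represented on the array by 139 probes, out of 4604 named genes in all. CCNE2, TYMS, POLD1, RFC5, KIF2C and STMN1 were not among the probes with a gene symbol here. Of the 48 measured genes, 6 had 1 probe, 42 had at least 2, and the largest number was 8. A gene's value on an array was the mean of its probes.

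The values come from 40 hybridisations of 2-colour lymphochip arrays, which compare RNA of cells with an induced shRNA against CASP10, a caspase that starts proteolytic cascades, with RNA of a reference. The myeloma lines SKMM1, H929 and KMS12 derive from human plasma cell tumours, and a pair of lines from human B-cell lymphomas, OCI-Ly7 and OCI-Ly19, served as controls. All lines carried a retroviral vector with a doxycycline-inducible shRNA, and the Cy5 channel always held cells given 20 ng/ml doxycycline, on days 1 to 5 (24 to 120 hours). The study asked which genes respond to loss of CASP10. The hairpin shCasp10-2 was set against uninduced cells of the same line, hairpin and day, without doxycycline, in SKMM1 (12 arrays), H929 (8), KMS12 (4), OCI-Ly7 (2) and OCI-Ly19 (2). The hairpin shCasp10-3 was set against uninduced cells in H929 (4 arrays) and KMS12 (4 arrays). On a further 4 arrays of SKMM1, days 1 to 4, the reference held SKMM1 cells with a control shRNA and the same dose of doxycycline, so that only there both channels came from treated cells. Arrays that share line, hairpin and repeat number are called a time course here.

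A cell that commits to division first builds the cyclin E and CDK2 kinase, licenses its replication origins and raises its nucleotide supply, and then copies its DNA with polymerases held on the template by the PCNA clamp. The cyclin B and CDK1 kinase, with its activators and with Aurora and Polo kinases, drives entry into mitosis, where the spindle checkpoint holds back anaphase until every kinetochore is attached. These genes are transcribed in waves, so that RNA of a bulk culture carries more of them when more of its cells are in cycle. In these bulk samples, fewer cells in cycle and less RNA per cell cannot be told apart.

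The values are log2 ratios, above 0 when the gene was higher in cells with the induced CASP10 shRNA, and log2 is assumed because the base is not given in the sources used here. Arrays with more than 10% of probes beyond 3 in either direction are called wide here, and the 12 such arrays were left out of the fits, among them all 3 arrays of days 2 to 4 of SKMM1 repeat 2. The fits used the other 22 arrays of days 2 to 4, of which 16 were myeloma arrays of 7 time courses. Over all features, 95 of 780 pairs of arrays had a Pearson r under -0.3 (7 of 231 pairs of the arrays in the fits), so the direction of single arrays is not settled. CASP10 itself was between -0.74 and -0.43 on the 4 arrays against the control shRNA and below 0 on most myeloma arrays, but it was at 2.04 and 1.5 on the arrays labelled OCI-Ly7 and at 0.12 and -0.24 on those of OCI-Ly19. It passed the test in none of the 12 comparisons (smallest adjusted p of limma 0.109). With arrays holding over 5% of such probes also left out it fell in the myeloma lines, at -0.28 (adjusted p = 0.00209), and against the control shRNA, at -0.66 (adjusted p = 0.000223), in a fit that called 26.8% and 43.0% of all features in these comparisons. The correlation within time courses was -0.0875 in that fit, beside 0.281 in the main fit. Days of the same course thus counted as independent there, and its p-values measure the spread between arrays, not between courses. The labels mark no separate cultures, so p-values measure the spread between these samples, which may be technical. Ratios give no levels, so the lines could not be checked against their cell type markers.

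On the arrays against the control shRNA the members' median was -0.27, -0.21, -0.36 and -0.28 on days 1 to 4. Of the 48 genes, 37, 34, 40 and 40 were below 0 on those days, while the median of all features stayed between 0.02 and 0.06. In SKMM1 against uninduced cells the median of repeat 1 was -0.12, -0.22 and -0.26 on days 2 to 4. The day 1 array of SKMM1, whose label gives no repeat number, had a median of 0.06. Thus the members lay below 0 from day 1 against the control shRNA, and from day 2 against uninduced cells in repeat 1. Repeat 3 stood apart from repeat 1 when set against 0, with -0.09 on day 2 and 0.13 on day 3, and with 0.41 on its wide day 4 array. Repeat 2 had -0.50, 0.00 and 0.10 on its wide arrays of days 2 to 4 and -0.01 on day 5, and repeat 1 had -0.03 on its wide day 5 array. The repeats of SKMM1 thus differed against 0, and below 0 throughout days 2 to 4 was repeat 1 alone. The median of all features differed as well. On those days it lay between 0.035 and 0.102 in repeat 1 and between 0.105 and 0.424 in repeat 3. In repeat 2 it lay between -1.026 and -0.374. The members' median minus that of all features was -0.22, -0.29 and -0.29 in repeat 1 and -0.19, -0.23 and -0.01 in repeat 3. This difference was above 0 throughout in repeat 2, from 0.475 to 0.676. On the arrays of the fits the median lay between -0.19 and 0.01 in H929 and between -0.10 and 0.07 in KMS12. OCI-Ly19 had -0.23 on day 3 and -0.64 on day 4, and the array labelled OCI-Ly7 had -0.06 on day 4.

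**Figure D1:**
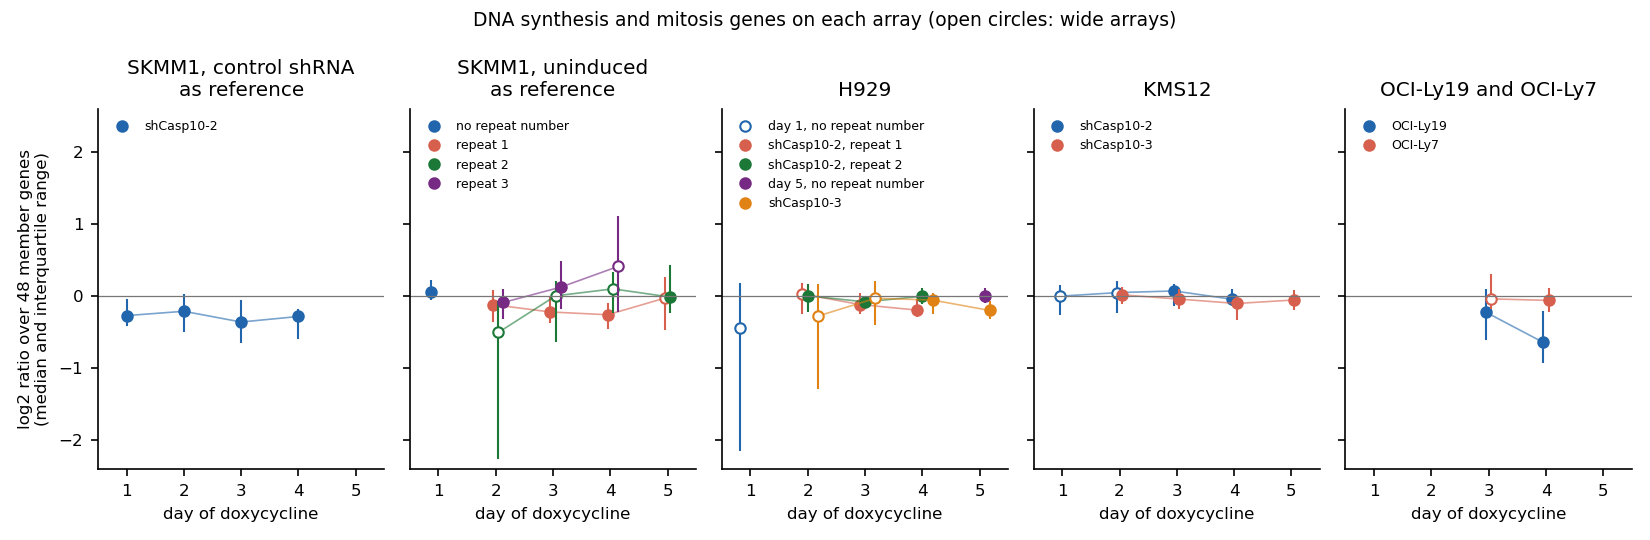
Median log2 ratio over the 48 measured genes on each of the 40 arrays (y axis) by day of doxycycline (x axis), with vertical bars for the interquartile range over genes, 1 colour per time course and open circles for wide arrays. The arrays against the control shRNA lie between -0.36 and -0.21, and OCI-Ly19 on day 4 has the lowest median of the arrays that are not wide, -0.64.

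Against the control shRNA, 4 members fell in SKMM1 and 0 rose, which is 8.33% of 48 beside 3.46% of all 9681 features called (3.27% lower). The genes were CDK1 and CCNB1, the kinase and the cyclin that drive mitotic entry, MAD2L1, a spindle checkpoint protein, and CENPA, the histone that marks centromeres. CDK1 was at -0.61, -0.82, -0.80 and -1.14 on days 1 to 4. CCNB1 was at -0.59, -0.49, -0.76 and -1.13 on those days. All 8 values lay below 0, with the lowest of each gene on day 4. MAD2L1 was at -0.61, -0.98, -1.17 and -1.10, and CENPA at -0.85, -0.73, -0.71 and -0.76. CENPA was as low on day 1 as later, while MAD2L1 was nearest to 0 on day 1. Over days 2 to 4 the fit gave CDK1 -0.92 (SE 0.225, adjusted p = 0.0291), CCNB1 -0.79 (SE 0.210, adjusted p = 0.0416), MAD2L1 -1.08 (SE 0.256, adjusted p = 0.0257) and CENPA -0.74 (SE 0.157, adjusted p = 0.0173). All probes of these genes were below 0 there, 4 of 4 for CDK1, 3 of 3 for CCNB1, 5 of 5 for MAD2L1 and 2 of 2 for CENPA. Those of CDK1 differed in size, at -1.53, -1.46, -0.42 and -0.28, so its gene mean joins unlike values. This comparison is 1 time course whose spread is borrowed from the other groups, and on course means 0 members were called (0 also with all arrays). With the control course's day 3 or day 4 left out 2 members were called (1.17% and 2.56% of all features), and with the KMS12 course of shCasp10-2 or shCasp10-3 left out 1 (1.39% and 1.85%). With OCI-Ly7 or OCI-Ly19 left out it was 7 or 9 (7.82% and 8.07%), and CENPA was among them each time.

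Against uninduced cells the 4 genes were less far below 0. In repeat 1, CDK1 was at -0.48, -0.72 and -0.84 on days 2 to 4, and CCNB1 at -0.37, -0.66 and -0.69. MAD2L1 was at -0.40, -0.62 and -0.79, and CENPA at -0.12, -0.22 and -0.37. On each of those days all 4 genes were lower against the control shRNA than against uninduced cells. The genes were chosen because they were called against the control shRNA on the same days, a choice that favours lower values there. On day 1, against uninduced cells, they were at -0.22 (CDK1), -0.09 (CCNB1), -0.12 (MAD2L1) and 0.09 (CENPA). In repeat 3, CDK1 was at -0.08 and 0.26 on days 2 and 3, MAD2L1 at 0.02 and 0.28, CENPA at 0.12 and 0.10, and CCNB1 at 0.03 and -0.34. These values of repeat 3 lay near or above 0, apart from CCNB1 on day 3, and did not overlap those of repeat 1. On the wide arrays of days 2 to 4 of repeat 2, CCNB1 was at 0.13, 0.14 and 0.34 and CENPA at 0.18, 0.22 and 0.12. CDK1 was at -0.78, -0.05 and -0.20 there and MAD2L1 at -0.73, -0.98 and 0.06. Thus CCNB1 and CENPA lay above 0 on these wide arrays of repeat 2, and CDK1 below. The day 5 array of repeat 2, which is not wide, went the other way. There CCNB1 was at -0.31, CENPA at -0.01, CDK1 at 0.48 and MAD2L1 at 0.82. Whether the arrays with both references share the induced RNA is not given in the sources used here, and the difference between the references was not tested.

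**Figure D2:**
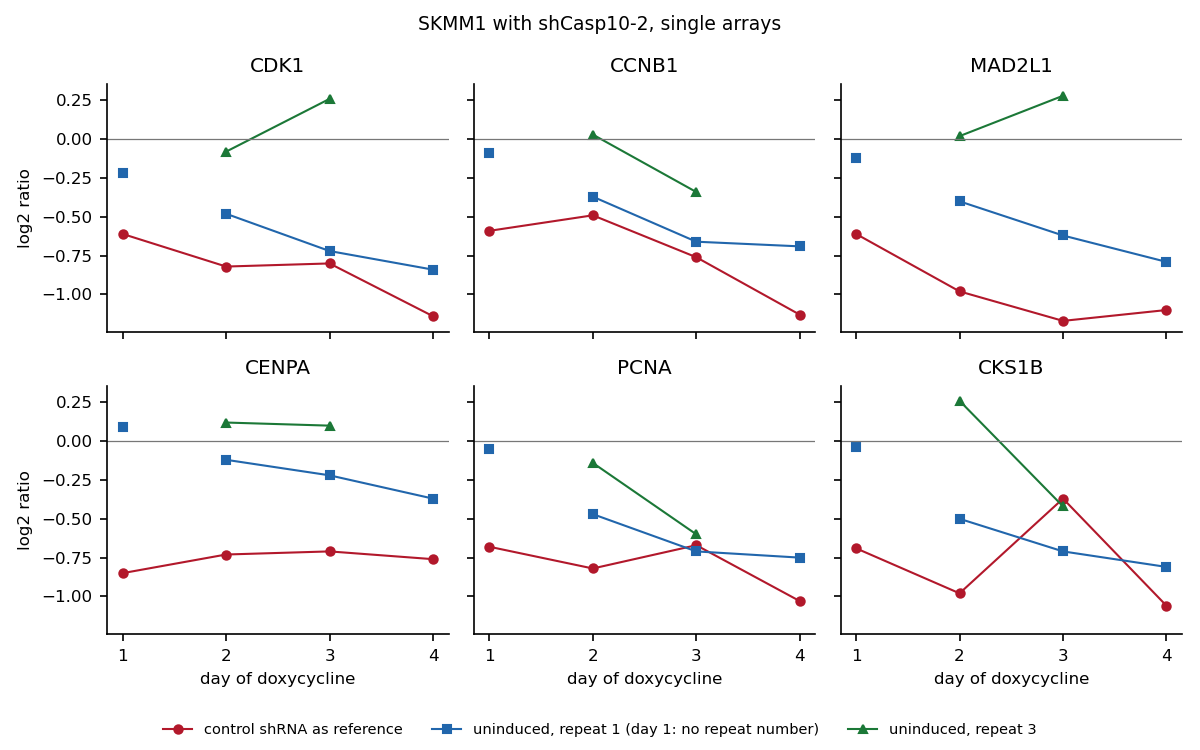
Log2 ratio (y axis) of 6 member genes on single arrays of SKMM1 with shCasp10-2 by day of doxycycline (x axis), against the control shRNA (red circles), against uninduced cells in repeat 1 (blue squares, day 1 without a repeat number) and in repeat 3 (green triangles). CENPA stays between -0.85 and -0.71 against the control shRNA and between -0.37 and 0.09 on the blue arrays.

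Promoters of the genes that the results turn on are shown because cell cycle genes share short elements near their start, the CHR (TTTGAA or TTCGAA), the CCAAT box and E2F-like sites (here TTTNNCGC). Each stretch holds the 150 bases before a RefSeq transcription start on GRCh38.p14, 5′ to 3′ on the gene's strand, with matches to any of the 3 motifs on either strand in capitals. They are CCNB1 (chr5:69167000-69167149, + strand), the second listed start of CDK1 (chr10:60778328-60778477, + strand), CENPA (chr2:26785906-26786055, + strand) and MAD2L1 (chr4:120066849-120066998, - strand). CCNB2 (chr15:59104996-59105145, + strand), HMMR (chr5:163460482-163460631, + strand) and the first listed start of PCNA (chr20:5126623-5126772, - strand) are added for the lymphoma lines. CCNE1, CENPF, RFC3 and RRM2, which also fell there, are not shown, and CCNE1 has no match in its 150 bases. The first listed start of CDK1, also not shown, has a CCAAT match at -150 and no other match.
CCNB1: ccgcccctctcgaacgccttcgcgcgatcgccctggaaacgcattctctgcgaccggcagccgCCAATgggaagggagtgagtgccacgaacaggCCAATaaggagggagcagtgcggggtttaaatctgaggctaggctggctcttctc
CDK1: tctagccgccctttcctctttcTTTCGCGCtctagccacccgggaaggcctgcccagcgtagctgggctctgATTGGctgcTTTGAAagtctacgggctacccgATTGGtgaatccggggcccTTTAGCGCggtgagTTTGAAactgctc
CENPA: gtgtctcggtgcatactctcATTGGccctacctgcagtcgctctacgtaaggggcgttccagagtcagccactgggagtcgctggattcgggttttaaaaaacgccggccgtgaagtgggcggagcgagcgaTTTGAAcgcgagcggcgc
MAD2L1: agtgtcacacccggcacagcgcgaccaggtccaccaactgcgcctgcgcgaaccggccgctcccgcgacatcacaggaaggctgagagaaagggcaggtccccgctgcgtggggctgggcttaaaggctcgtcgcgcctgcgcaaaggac
CCNB2: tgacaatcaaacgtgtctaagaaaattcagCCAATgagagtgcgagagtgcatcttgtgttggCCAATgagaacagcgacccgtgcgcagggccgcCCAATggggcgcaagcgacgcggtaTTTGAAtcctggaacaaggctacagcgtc
HMMR: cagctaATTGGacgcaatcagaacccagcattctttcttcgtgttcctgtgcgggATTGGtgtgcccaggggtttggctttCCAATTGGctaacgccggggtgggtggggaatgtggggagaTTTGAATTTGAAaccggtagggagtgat
PCNA: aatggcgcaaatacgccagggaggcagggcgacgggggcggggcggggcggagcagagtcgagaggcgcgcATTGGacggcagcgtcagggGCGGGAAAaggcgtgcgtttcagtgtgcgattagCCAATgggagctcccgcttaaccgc
With the start's own base after position -1, CDK1 has CHR matches at -69 and -13, CCAAT matches at -78 and -46 and E2F-like matches at -128 and -27. CCNB1 has CCAAT matches at -87 and -55, and CENPA a CHR match at -18. HMMR has adjoining CHR matches at -28 and -22, and 2 of its CCAAT matches overlap, at -69 and -66. PCNA has an E2F-like match at -59 between CCAAT matches at -79 and -25.

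In the 250 bases before the start, 40 of the 48 measured genes had a promoter in the RefSeq table. The CCAAT box was found on either strand in 32 of the 40 (80.0%) beside 37.0% of 27305 genes. The CHR was found in 17 of 40 (42.5%) beside 17.2%, and the E2F-like motif in 8 of 40 (20.0%) beside 7.15%. Of the 22 mitosis genes 14 had a CHR (63.6%), and of the 14 DNA synthesis genes 1 did, RRM1. The E2F-like motif was split the other way, with 6 of 14 DNA synthesis genes (CDC25A, PCNA, POLA1, POLE2, RFC3 and LIG1) and 2 of 22 mitosis genes (CDK1 and CENPA). Of the 4 genes that fell against the control shRNA, all had a CCAAT box in this window, that of MAD2L1 lying farther from the start than the stretch shown, and 2 had a CHR, CDK1 and CENPA. Of the 9 genes with a promoter that fell in the lymphoma lines, 7 had a CCAAT box (77.8%). A CHR was found in 3 of these 9 (33.3%) and an E2F-like motif in 3 (33.3%). A match is a run of letters, not a shown binding site.

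**Figure D3:**
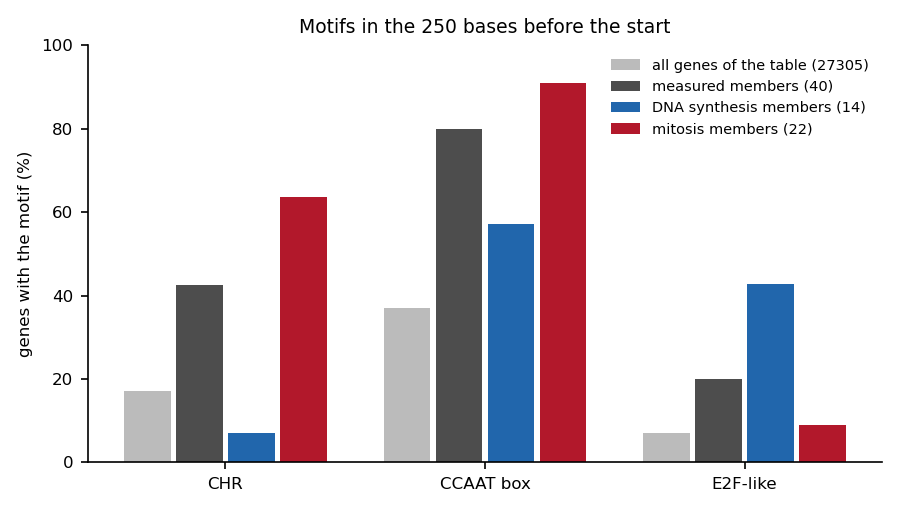
Share of genes (y axis, percent) with each motif in the 250 bases before a RefSeq start, for all 27305 genes, the 40 measured members with a promoter, the 14 DNA synthesis members and the 22 mitosis members. The CHR is in 63.6% of the mitosis members and 7.14% of the DNA synthesis members.

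Of the 44 other members 35 were below 0 against the control shRNA, so that 39 of all 48 (81.2%) were, beside 46.9% of all features. The median over the 48 was -0.30 beside 0.04 for all features. All 3 arrays were below 0 for 29 members (60.4%), beside 26.8% of all features. They were above 0 for 3 members, CDC25A, PLK1 and NEK2, beside 33.4% of all features. With day 1 added, 25 members (52.1%) were below 0 on all 4 arrays, beside 22.5% of all features. Among the S phase entry genes, CCNE1, the cyclin that activates CDK2, was at -0.63 (SE 0.240, adjusted p = 0.162) and CDK2 at -0.56 (SE 0.189, adjusted p = 0.105). PCNA, the sliding clamp, was at -0.68, -0.82, -0.67 and -1.03 on days 1 to 4, and its fitted value of -0.84 (SE 0.237) just missed the threshold at an adjusted p of 0.0560. CKS1B, a small CDK-binding subunit, also just missed it, at -0.80 (SE 0.223, adjusted p = 0.0524). Both genes were below 0 on all 4 arrays, with CKS1B nearest to 0 on day 3 at -0.37. RFC4, a subunit of the clamp loader, was at -0.43 (SE 0.162, adjusted p = 0.157), and TOP2A, which untangles DNA, at -0.68 (SE 0.295, adjusted p = 0.233). By role, the polymerase, clamp, clamp loader and ligation genes had the lowest median, -0.49 over 8 genes, and the 2 checkpoint kinases, CHEK1 and WEE1, the highest, -0.03.

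A few members lay above 0. PLK1, the Polo kinase of mitosis, was at -0.69, 0.10, 0.30 and 1.40 on days 1 to 4. CDC25A, a phosphatase that activates CDK2, was at 0.00, 0.26, 0.41 and 1.06. Repeat 1 against uninduced cells also had its highest values of both genes on day 4, 1.13 for PLK1 and 0.72 for CDC25A. Whether it shares its induced RNA with the control course is not given, so it may not be independent. Over all features its Pearson r with that course was 0.497, 0.661 and 0.711 on days 2 to 4. That of repeat 3 was 0.321, 0.477 and 0.136. The other repeats did not have their highest values on day 4 for both genes. In repeat 3, whose day 4 array is wide, PLK1 was at -1.24, 0.42 and -2.06 on days 2 to 4 and CDC25A at -0.43, 1.09 and -1.37. On the wide arrays of those days in repeat 2, PLK1 was at -0.22, -0.20 and 0.68 and CDC25A at -1.07, -0.81 and -0.83. Neither passed the test against the control shRNA, PLK1 at 0.60 (SE 0.445, adjusted p = 0.540) and CDC25A at 0.58 (SE 0.384, adjusted p = 0.481). The 4 probes of PLK1 lay between -0.12 and 1.09 there, and CDC25A had 1 probe.

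**Figure D4:**
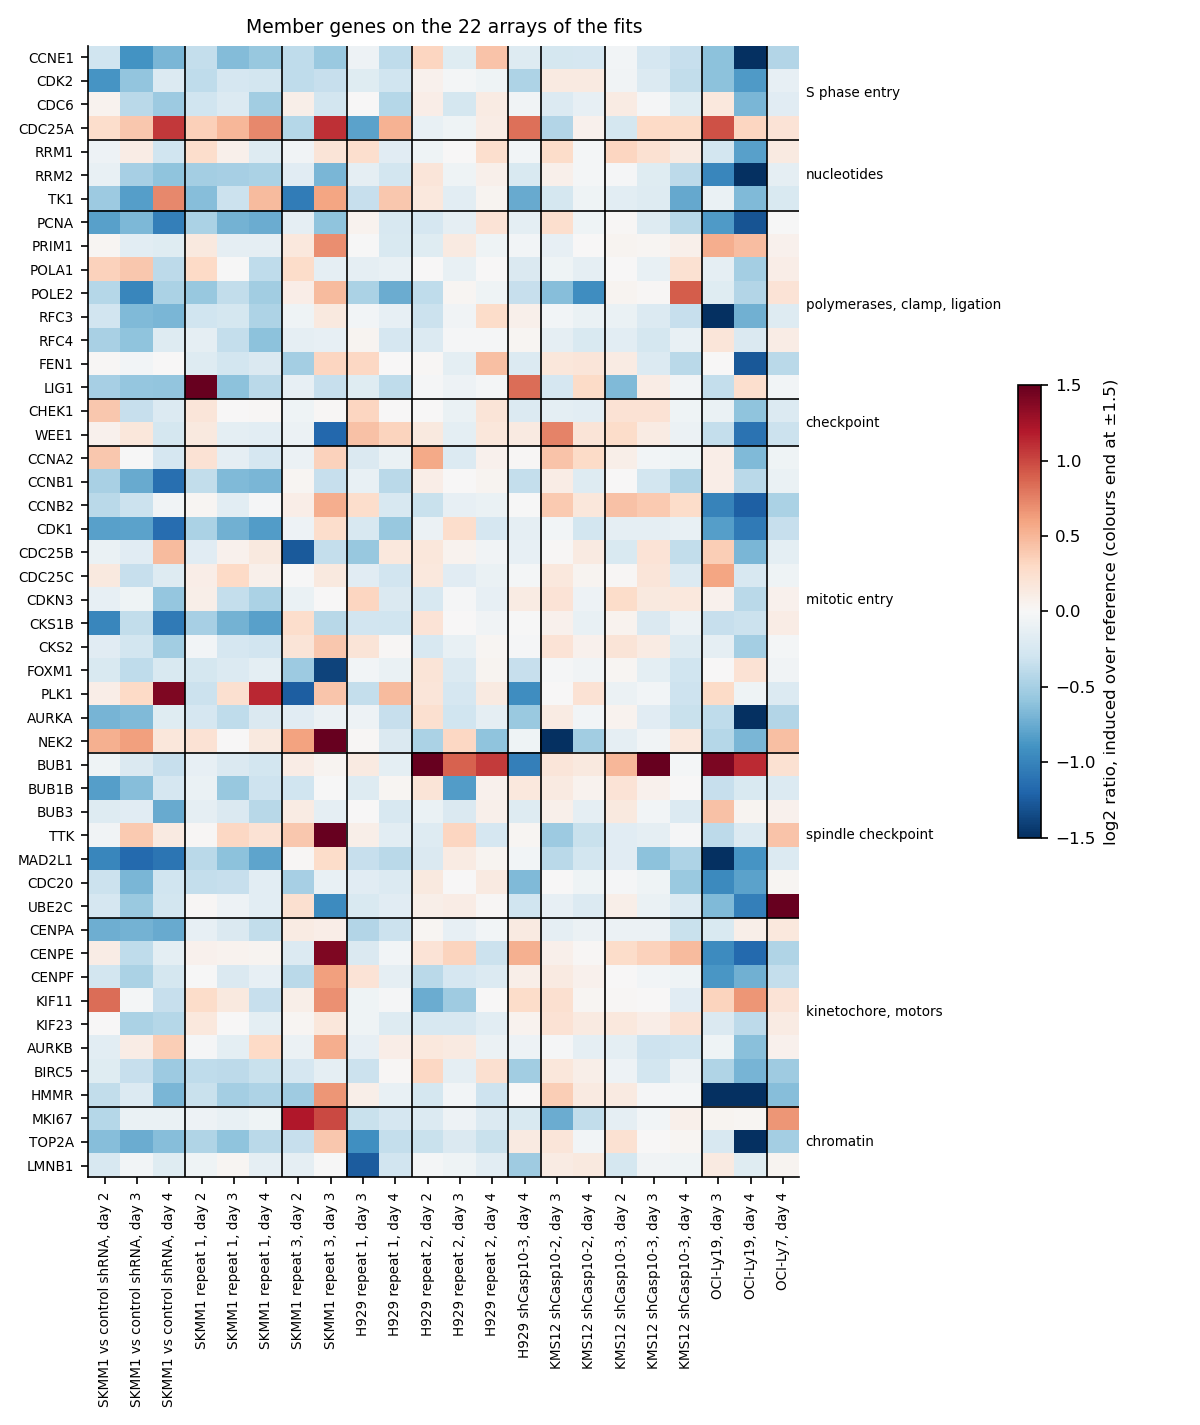
Log2 ratio of each of the 48 genes (rows, grouped by role) on each of the 22 arrays of the fits (columns, by time course and day), in colours that end at ±1.5, blue for lower and red for higher than the reference. The columns of SKMM1 against the control shRNA and of OCI-Ly19 are mostly blue, with 40 of 48 genes below 0 on day 4 of the first and 39 on day 4 of the second.

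Against uninduced cells, 0 of 48 members passed the test in SKMM1, beside 4.98% of all features (11 members had an unadjusted p under 0.05 in limma, and 0 members were called on course means). The nearest were FOXM1, the transcription factor of the mitotic genes, at -0.55 (SE 0.161, adjusted p = 0.0531), PCNA at -0.52 (SE 0.176, adjusted p = 0.0752) and CCNE1 at -0.50 (SE 0.178, adjusted p = 0.0873). FOXM1 was at -0.26, -0.20 and -0.15 in repeat 1 and at -0.55 and -1.39 in repeat 3. PCNA was at -0.47, -0.71 and -0.75 in repeat 1 and at -0.14 and -0.60 in repeat 3. CCNE1 was at -0.36, -0.65 and -0.57 in repeat 1 and at -0.38 and -0.56 in repeat 3. All 5 arrays of the fit were below 0 for these 3 genes, and the lowest values of FOXM1 were both in repeat 3. The wide arrays did not all share this. FOXM1 was at 0.18, 0.24 and 0.23 on days 2 to 4 of repeat 2 and at 0.26 on day 4 of repeat 3. PCNA was at -0.18, 0.10 and 0.36 in repeat 2 and at 0.74 on day 4 of repeat 3. CCNE1 was at -0.10, -0.03 and 0.08 in repeat 2 and at -1.07 on day 4 of repeat 3. RRM2, the regulated subunit of ribonucleotide reductase, was below 0 on all 5 arrays as well, from -0.68 to -0.17, with a fitted value of -0.47 (SE 0.176, adjusted p = 0.0999). In repeat 1, 26 members (54.2%) were below 0 on all 3 arrays, beside 26.8% of all features.

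In SKMM1 the median of all features was 0.14, so that the members, with a median of -0.15, lay further below the other features than below 0. This distance is lost with the sign of repeat 3 turned, where all features had a median of -0.12 and the members -0.11, and with all arrays, where they had -0.21 and -0.18. With each array centred on its median, 10 members fell and 0 rose, beside 9.09% of all features called. They were CCNE1, CDK2, RRM2, PCNA, RFC4, CCNB1, CDK1, CKS1B, FOXM1 and BIRC5, the last an inhibitor of cell death that also acts in the chromosomal passenger complex. Their centred values lay between -0.69 for FOXM1 (adjusted p = 0.0333) and -0.40 for RFC4 (adjusted p = 0.0411). Without OCI-Ly19 or OCI-Ly7, uncentred, 4 members fell (CCNE1, FOXM1, PCNA and RRM2), beside 16.2% and 18.0% of all features called. Without SKMM1 repeat 1, 1 fell (FOXM1) and 2 rose (MKI67 and TTK), beside 10.9%. These shares of the members lie below those of all features. On all arrays 0 were called.

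In H929 and KMS12 no member passed the test. In H929 0 of 48 members and 0.0% of all features passed the test (1 member with an unadjusted p under 0.05 in limma, 0 members on course means). There 38 members (79.2%) were below 0 beside 58.8% of all features, with a median of -0.09 beside -0.04. The member with the smallest p was LMNB1, a lamin of the nuclear envelope, at -0.42 (SE 0.140, adjusted p = 0.888). LMNB1 was at -1.25 and -0.29 in repeat 1 (days 3 and 4), at -0.03, -0.06 and -0.16 in repeat 2 (days 2 to 4) and at -0.53 with shCasp10-3 on day 4. Its value on day 3 of repeat 1 was far below the other 5. In KMS12 0 members and 0.0103% of all features passed the test (1 member with an unadjusted p under 0.05 in limma, 0 members on course means), and the median was -0.04 beside -0.10 for all features. In this line 33 members (68.8%) were below 0 beside 66.2% of all features, a share near the background. CCNB2, a second B-type cyclin, had the smallest p there and was above 0 on all 5 arrays, from 0.17 to 0.44, with a fitted value of 0.33 (SE 0.143, adjusted p = 0.611). MAD2L1 was below 0 on the same 5 arrays, from -0.61 to -0.17, at -0.38 (SE 0.190, adjusted p = 0.681).

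Over the 3 myeloma lines, weighted equally, 0 of 48 members passed the test, beside 1.71% of all features (10 members had an unadjusted p under 0.05 in limma, all below 0, and 0 members were called on course means). The median was -0.07 beside 0.01 for all features, and 33 members (68.8%) were below 0 beside 47.6% of all features. The lowest were MAD2L1 at -0.26 (SE 0.105, adjusted p = 0.196), CCNE1 at -0.26 (SE 0.099, adjusted p = 0.178), FOXM1 at -0.25 (SE 0.090, adjusted p = 0.159), CCNB1 at -0.23 (SE 0.087, adjusted p = 0.171) and PCNA at -0.23 (SE 0.098, adjusted p = 0.231). The DNA synthesis genes had 12 of 15 below 0 and a median of -0.14, and the mitosis genes 18 of 28 and -0.06. In the nucleotide supply, RRM2 was at -0.22 (SE 0.098, adjusted p = 0.248) and TK1, thymidine kinase, at -0.21 (SE 0.174, adjusted p = 0.588). CDC20, the activator of the anaphase-promoting complex, was at -0.20 (SE 0.092, adjusted p = 0.273), and CHEK1 and WEE1, kinases that restrain CDK1, were at 0.02 and 0.05. Only CDC6, which loads the replicative helicase, and BUB3, a spindle checkpoint protein, were below 0 in all 7 courses. That is 2 of 48 (4.17%) beside 4.19% of all features, a share near the background. The course means of CDC6 lay between -0.34 and -0.01 and those of BUB3 between -0.26 and -0.01. With arrays holding over 5% of such probes also left out, 11 members fell and 1 rose, beside 26.8% of all features called. The members' share lies slightly below that of all features, and this fit holds 1 course of SKMM1 and counts days of a course as independent (correlation -0.0875). In it the members with the lowest adjusted p were MAD2L1 at -0.36 (SE 0.066, adjusted p = 0.00169), CDK1 at -0.33 (SE 0.063, adjusted p = 0.0023) and PCNA at -0.31 (SE 0.059, adjusted p = 0.0023). Without SKMM1 repeat 1, FOXM1 alone fell, beside 2.56% of all features called.

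No member passed the test of a difference between the myeloma lines, with 0 of 48 called in SKMM1 minus H929 (0.0% of all features), SKMM1 minus KMS12 (0.062%) and H929 minus KMS12 (0.0%). In limma 2, 3 and 1 members had an unadjusted p under 0.05 in these comparisons, and on course means 0 were called in each. MKI67, the proliferation antigen, had the smallest p in the comparisons of SKMM1, at 0.67 above H929 (SE 0.250, adjusted p = 0.305) and 0.71 above KMS12 (SE 0.266, adjusted p = 0.148). Its SKMM1 arrays were split by repeat, with -0.08, -0.11 and -0.06 in repeat 1 and 1.20 and 0.99 in repeat 3. Without SKMM1 repeat 1, 2 members were called in SKMM1 minus H929 and 4 in SKMM1 minus KMS12, beside 7.34% and 10.5% of all features, shares above those of the members. Between the hairpins, shCasp10-3 minus shCasp10-2 in H929 and KMS12, 0 members were called beside 0.0413% of all features (1 with an unadjusted p under 0.05 in limma, 0 on course means), and the members' median difference was -0.01.

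No member passed the test of a change with the day in the myeloma courses, with 0 of 48 called and 0.0% of all features (2 members with an unadjusted p under 0.05 in limma, and 0 on course means). The steepest members were CDC25A at 0.38 per day (SE 0.145, adjusted p = 0.722) and PLK1 at 0.34 per day (SE 0.175, adjusted p = 0.722) upwards, and BUB1 at -0.21 per day (SE 0.149, adjusted p = 0.728) and WEE1 at -0.20 per day (SE 0.104, adjusted p = 0.722) downwards. CDC25A, chosen here for its slope, was higher on the last day than on the first in the 6 courses with more than 1 array in the fits. On those first and last days it was at 0.36 and 0.72 in SKMM1 repeat 1 and at -0.43 and 1.09 in repeat 3, whose wide array of the next day had -1.37. In H929 it was at -0.80 and 0.52 in repeat 1 and at -0.11 and 0.11 in repeat 2. In KMS12 it was at -0.44 and 0.07 with shCasp10-2 and at -0.26 and 0.29 with shCasp10-3.

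In the lymphoma lines 11 members fell and 0 rose against uninduced cells, which is 22.9% of 48 beside 10.2% of all features called (5.89% lower). Of the DNA synthesis genes these were CCNE1, RRM2, PCNA and RFC3, and of the mitosis genes CCNB2, CDK1, AURKA, MAD2L1, CENPF, BIRC5 and HMMR. HMMR, a hyaluronan receptor that also binds the mitotic spindle, was at -1.87 and -1.77 on days 3 and 4 in OCI-Ly19 and at -0.17 and -0.64 on those days on the arrays labelled OCI-Ly7, of which day 3 was wide. CCNB2 was at -1.0 and -1.23 in OCI-Ly19 and at -0.09 and -0.48 on the OCI-Ly7 arrays. MAD2L1 was at -1.60 and -0.89 in OCI-Ly19 and at -0.49 and -0.21 on the OCI-Ly7 arrays. For these genes all 4 arrays were below 0, and those of OCI-Ly19 were the lower ones. CDK1 was at -0.83 and -1.06 in OCI-Ly19 and at -0.30 and -0.34 on the OCI-Ly7 arrays. RRM2 was at -0.98 and -1.58 against -0.32 and -0.14. RFC3, a clamp loader subunit, was at -1.60 and -0.72 against -0.51 and -0.19. PCNA, AURKA, BIRC5 and CCNE1 were not split in this way. CCNE1 was at -0.61 and -1.51 in OCI-Ly19 and at 0.26 and -0.44 on the OCI-Ly7 arrays, so not all 4 arrays were below 0. PCNA was at -0.85 and -1.29 in OCI-Ly19 but also at -0.85 on day 3 of OCI-Ly7, and at -0.01 on its day 4. BIRC5 was at -0.45 and -0.70 in OCI-Ly19 and at 0.14 and -0.53 on the OCI-Ly7 arrays. AURKA, the Aurora A kinase, was at -0.38 and -1.55 in OCI-Ly19 and at 1.57 and -0.44 on the OCI-Ly7 arrays, the only one of these genes with a value above 1.

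The fitted values were -1.36 for HMMR (SE 0.241, adjusted p = 0.00632), -0.87 for CCNB2 (SE 0.166, adjusted p = 0.00813), -0.84 for RRM2 (SE 0.205, adjusted p = 0.0192) and -0.84 for MAD2L1 (SE 0.221, adjusted p = 0.0259). The other 7 lay between -0.82 for CCNE1 (adjusted p = 0.0221) and -0.56 for BIRC5 (adjusted p = 0.0313), with CENPF, a kinetochore protein, at -0.62 (adjusted p = 0.0359) and PCNA at -0.65 (adjusted p = 0.0489). All probes of HMMR (3), CENPF (7), CDK1 (4), AURKA (3) and PCNA (3) were below 0 there, and 4 of the 5 of MAD2L1. The members' median was -0.19 beside 0.11 for all features, and 36 (75%) were below 0 beside 41.7% of all features. On both arrays of OCI-Ly19, 29 members were below 0 (60.4%), beside 34.6% of all features. On all 4 lymphoma arrays 13 were (27.1%), beside 12.3%. CDK1 and MAD2L1 were called lower both here and against the control shRNA, which is 2 of 4 genes of that list and 2 of 11 of this one. The features shared by both comparisons were not counted over all features, so this overlap has no background beside it. Both comparisons were tested with a spread pooled over all groups. The calls rest on OCI-Ly19. Without it the lymphoma lines are 1 array, OCI-Ly7 on day 4, whose spread is assumed to be that of the other groups, and 0 members fell and 1, UBE2C, was called higher at 1.85, beside 9.79% of all features called. Without OCI-Ly7 16 members fell (15% of all features called), without the KMS12 course of shCasp10-2 6 (6.27%) and without that of shCasp10-3 3 (4.54%), and on course means or with all arrays 0 were called.

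**Figure D5:**
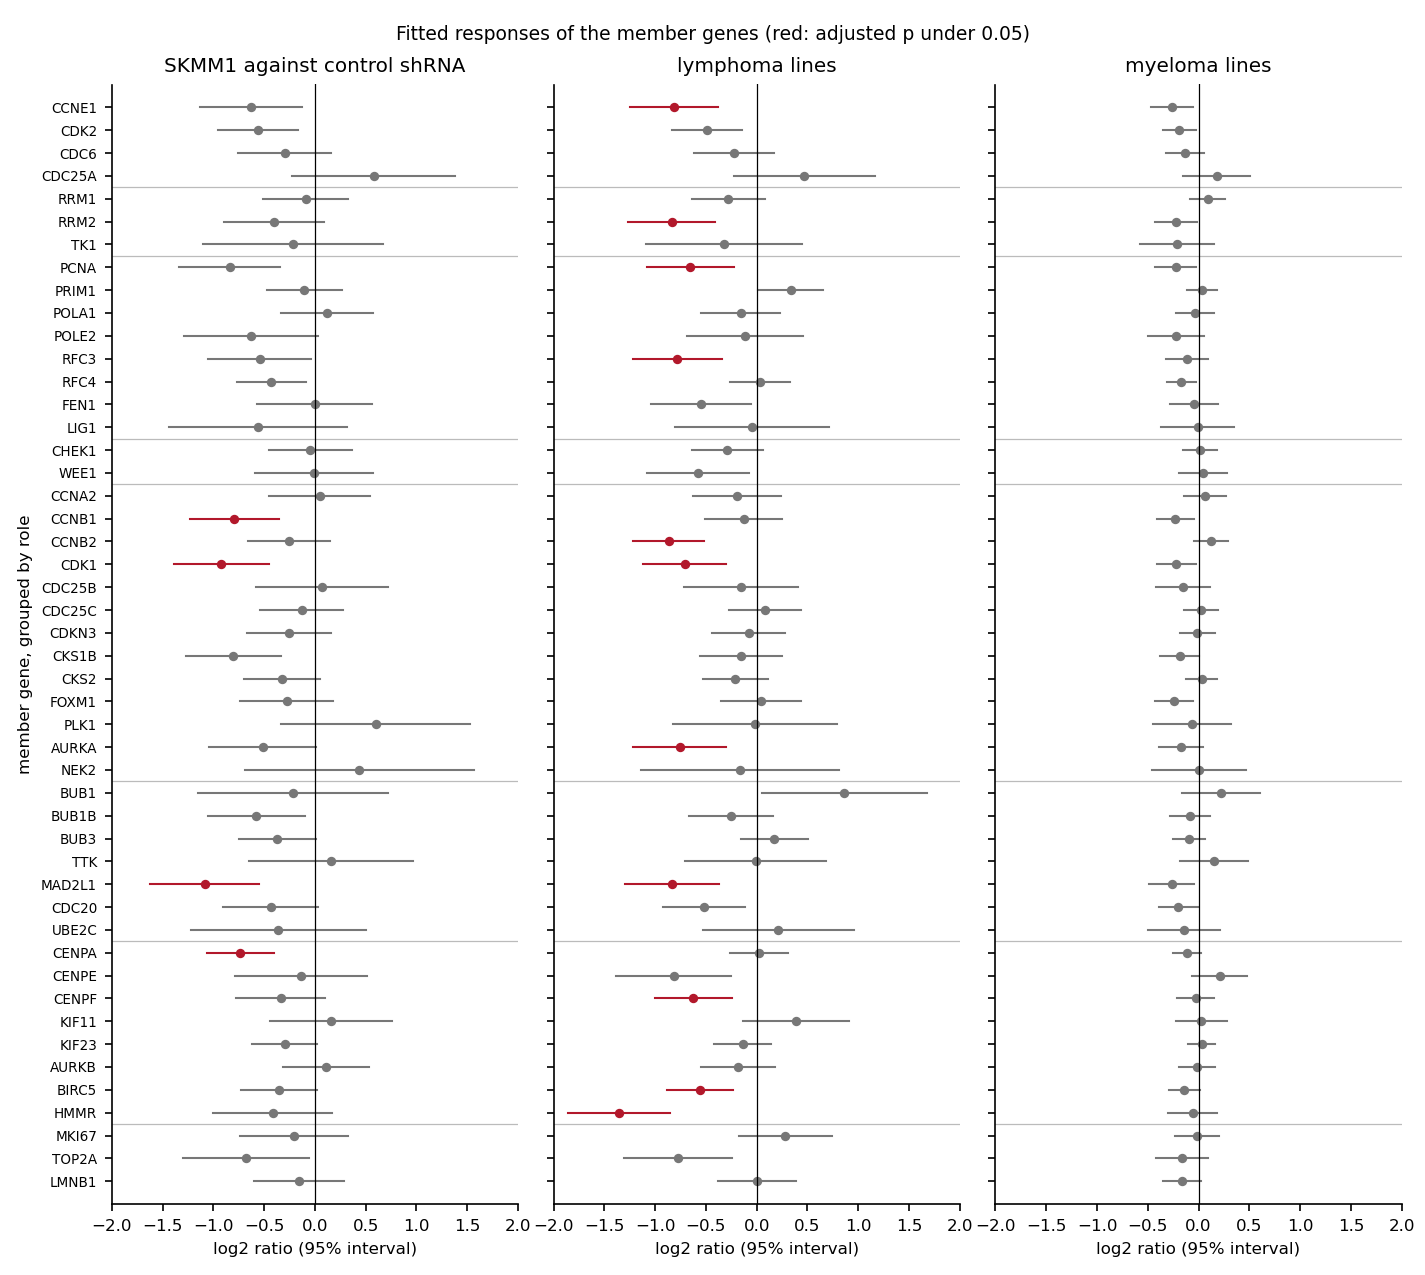
Fitted log2 ratio with its 95% interval (x axis) for each of the 48 genes (rows, grouped by role) in SKMM1 against the control shRNA, in the lymphoma lines and in the myeloma lines, with genes of adjusted p under 0.05 in red. The 4 red genes of the first panel and the 11 of the second all lie below 0, and the third panel has 0 red genes.

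Lymphoma minus myeloma, on days 3 and 4, gave 0 members called beside 0.0103% of all features (6 members with an unadjusted p under 0.05 in limma, 0 on course means). The largest differences were HMMR at -1.35 (SE 0.297, adjusted p = 0.104) and CENPE, a kinetochore motor, at -1.11 (SE 0.304, adjusted p = 0.133) below, and BUB1 at 0.70 (SE 0.468, adjusted p = 0.461) and UBE2C at 0.51 (SE 0.443, adjusted p = 0.584) above the myeloma lines. CENPE was at -0.94 and -1.17 in OCI-Ly19, at 0.04 and -0.45 on the OCI-Ly7 arrays and above 0 on all 5 arrays of KMS12, from 0.02 to 0.47. Thus members were called against 0 in the lymphoma lines and not in the myeloma lines, but the difference itself passed the test for none. Without OCI-Ly7 6 members were called, all lower, beside 7.11% of all features, and without SKMM1 repeat 1 4, all lower, beside 2.52%. Without OCI-Ly19, with 1 lymphoma array left, 1 was called, UBE2C, higher, beside 6.65%.

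The probes of some members did not go together, and gene means there join unlike values. BUB1, a checkpoint kinase, had 2 probes, at -0.10 and 0.67 over the myeloma arrays and at -0.22 and 2.06 over the lymphoma arrays. Its gene mean was at 1.71, 0.88 and 1.05 in H929 repeat 2 and at 1.41 and 1.12 in OCI-Ly19. MKI67 had 8 probes, from -0.42 to 0.49 over the myeloma arrays, of which 5 were below 0. UBE2C, the ubiquitin-conjugating enzyme of anaphase, had 3 probes over the lymphoma arrays from -0.90 to 1.94, and was at -0.66 and -1.02 in OCI-Ly19 and at 1.31 and 1.85 on the OCI-Ly7 arrays. By contrast the 2 probes of CCNE1 lay within 0.17 of each other over the myeloma arrays and both below 0.

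Of 31 further measured replication genes, 2 fell in the myeloma lines and 0 rose, beside 1.71% of all features called: MCM2, a subunit of the replicative helicase, at -0.38 (SE 0.086, adjusted p = 0.0343), and UNG, which removes uracil from DNA, at -0.29 (SE 0.074, adjusted p = 0.046). Of 26 further mitosis genes 1 fell there, TACC3, a spindle protein, at -0.27 (SE 0.067, adjusted p = 0.0451). In SKMM1 alone MCM2 and TACC3 fell, 1 gene of each list beside 4.98% of all features, at -0.66 (SE 0.155, adjusted p = 0.0258) and -0.53 (SE 0.120, adjusted p = 0.0239). In the lymphoma lines 5 of the replication genes fell (MCM2, MCM7, RFC1, POLA2 and POLD3) and 4 of the mitosis genes (NUF2, TRIP13, MYBL2 and HMGB2), and 0 rose, beside 10.2% of all features called. Against the control shRNA, RPA3 and TIMELESS of the first list and CDC16 of the second fell, at -0.76 (adjusted p = 0.0441), -0.81 (adjusted p = 0.0313) and -0.67 (adjusted p = 0.0466), beside 3.46% of all features called. Beside these, 10 markers of T and NK cells had a median of -0.61 against the control shRNA, where GNLY fell, and of 0.44 in the lymphoma lines, where ZAP70 rose. In the lymphoma lines XBP1 of 10 plasma cell markers and CD79B of 9 mature B cell markers fell, and 6 myeloid markers had 0 called in any of these comparisons. On course means 0 features of any kind were called in the myeloma lines, in SKMM1 or in the lymphoma lines. Against the control shRNA 1 was, and it was higher. In the myeloma lines 1 feature was called without H929 repeat 1 or without the KMS12 course of shCasp10-2, and 2 without that of shCasp10-3. The part of these further genes and markers in the members' values was not tested.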

How the data were processed

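The 40 arrays are listed in the report by line, hairpin, reference and day. The authors deposited 1 log2 ratio (base assumed) per probe and array, 15246 probes without missing values; how background and normalisation were handled, and which dye was divided by which, is not given in the sources used here. Values were read as Cy5 over Cy3, with the dyes taken per the labels. No dyes were swapped, so responses against 0 also hold any bias between dyes. A gene symbol was listed in the platform annotation for 10169 probes (several for 4, none for 5073), and 0 symbols changed through RefSeq's GRCh38.p14 table. The mean over a gene's probes and each unnamed probe by itself gave 9681 features.

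The main test was limma 3.58.1 in R 4.3.3 (lmFit, eBayes) on the 22 arrays of days 2 to 4 with at most 10% of probes beyond 3, with the time course as a random block (consensus correlation 0.281) and Benjamini-Hochberg adjustment over all features at 0.05. Lymphoma minus myeloma used days 3 and 4, and the change per day a common slope with a term per course. The scripts were tested on simulated data. The labels give days and repeats; arrays of days 1 and 5 stand outside the fits. The number of arrays limits the precision, and signal over background is unknown. The members and lists were chosen with earlier results of these data known. Genes named are those called in any comparison, the 2 with the smallest p of each role in the myeloma lines, the 2 highest and 2 lowest in lymphoma minus myeloma and in the change per day, the 2 whose probes differ most, other pathway genes if called, and the target; others, such as the genes nearest the threshold, were named after their values were seen. The alternatives were all arrays, course means, centred or scaled arrays, probe medians, days 1 to 5, a 5% limit for wide arrays, turned signs of SKMM1 repeats and each course left out.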

Additional observations from a re-analysis of the deposited data

Results flagged for a closer look

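For 7 of the 48 members (14.6%) every array of 1 line lay on one side of 0 and every array of another on the other side, among the arrays of the fits against uninduced cells in SKMM1, H929, KMS12 and OCI-Ly19. The share over all features was 15.5%, so the members' count is near the background. CCNB2 had a mean of 0.33 in KMS12 (5 arrays, 0.17 to 0.44) and of -1.12 in OCI-Ly19 (2 arrays, -1.23 to -1.0). CENPE had a mean of 0.24 in KMS12 (0.02 to 0.47) and of -1.06 in OCI-Ly19 (-1.17 to -0.94). KIF23, a midzone motor, had a mean of 0.17 in KMS12 (0.10 to 0.22) and of -0.31 in OCI-Ly19 (-0.39 to -0.22). MKI67 had a mean of -0.22 in H929 (6 arrays, -0.33 to -0.08) and of 0.04 in OCI-Ly19 (0.03 and 0.04). FOXM1 had a mean of -0.51 in SKMM1 (5 arrays, -1.39 to -0.15) and of 0.11 in OCI-Ly19 (0.002 to 0.22). NEK2, a centrosome kinase, had a mean of 0.72 in SKMM1 (0.01 to 2.64) and of -0.55 in OCI-Ly19 (-0.68 to -0.43). TTK, a spindle checkpoint kinase, had a mean of 0.67 in SKMM1 (0.02 to 2.41), of -0.29 in OCI-Ly19 (-0.39 to -0.20) and of -0.24 in KMS12 (5 arrays, -0.54 to -0.02). SKMM1 minus KMS12 was tested for TTK in limma and did not pass, at 0.99 (SE 0.405, adjusted p = 0.182). The differences from OCI-Ly19, whose 2 arrays are 1 course, were not tested for these single lines. On the wide arrays of days 2 to 4 of SKMM1 repeat 2, FOXM1 was above 0 and NEK2 below 0.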

How the results depend on the processing

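Counts are members called, with the share of all features called in brackets where members were called. In the lymphoma lines (11) all arrays on course means gave 0, also centred or with SKMM1 repeat 2 turned; course means gave 0, days 3 and 4 alone 0, repeat 3 turned 2 (2.26%), arrays scaled to 1 spread 6 (5.57%), and leaving out arrays over 5% 23, 3 of them higher (31.1%). Against the control shRNA (4) all arrays gave 0, also centred or with repeat 2 turned, as did course means, scaling, days 3 and 4, and repeat 3 turned; without day 3 or day 4 it was 2 (1.17% and 2.56%), and without arrays over 5% 27, 2 of them higher (43.0%). Leaving out arrays over 5% also gave 12 in the myeloma lines, 1 of them higher (26.8%), 12 in SKMM1, 1 of them higher (30.1%), 21 in lymphoma minus myeloma, 3 of them higher (34.0%), 2 in SKMM1 minus H929 (5.25%) and 3 in SKMM1 minus KMS12 (11.6%), lower in both. The members' shares in the myeloma lines, in SKMM1 and in these 2 differences lie below those of all features. SKMM1 is then repeat 1 alone and lymphoma OCI-Ly19 alone. The correlation within time courses was then -0.0875 (-0.398 in lymphoma minus myeloma), so p-values there measure the spread between arrays, not between courses. Scaling gave 2 in lymphoma minus myeloma (0.516%). In SKMM1 days 1 to 5 gave 7, 3 of them higher (13.9%), probe medians 1, lower (7.81%), and centring 10, all lower (9.09%). With each course left out the counts ran from 1 to 16 (lymphoma), 1 to 9 (control shRNA), 0 to 6 (lymphoma minus myeloma), 0 to 4 (SKMM1 and SKMM1 minus KMS12), 0 to 2 (SKMM1 minus H929) and 0 to 1 (myeloma lines). The other 215 counts moved by at most 1.5 times. The fits on days 3 and 4, without single days of the control course, with all arrays centred and with crossed pairing were chosen after seeing the data. The cause was not tested.

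In the myeloma lines, uncalled values changed sign with all arrays on course means, centred, for BIRC5 (0.032), CCNB1 (0.038), CDC20 (0.010), CENPA (0.079), FOXM1 (0.041), PCNA (0.040) and RRM2 (0.036). FOXM1 also did with repeat 3 turned (0.049), CHEK1 with all arrays (-0.032) and days 1 to 5 (-0.012), and WEE1 on days 3 and 4 (-0.052). With each course left out CHEK1 ran from -0.033 (without KMS12 shCasp10-3) to 0.059, below 0 also without H929 repeat 1 (-0.007), and WEE1 from -0.063 (without SKMM1 repeat 1) to 0.132, below 0 also without KMS12 shCasp10-2 (-0.010). For SKMM1 minus H929 on repeats 1 and 2, 0 members were called with the replicate number as a block, without it and with crossed pairing. Same-numbered repeats deviated in opposite directions (r = -0.603 over 9681 features). This r includes wide arrays, all 3 of SKMM1 repeat 2 and day 2 of H929 repeat 1. It therefore cannot tell whether the numbers pair the lines.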
